A study of Mus musculus with 9 samples.

Results

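The genes described here encode cytokine receptor chains of the JAK-STAT type and their kinases, transcription factors and inhibitors, together with the receptor chains Il17ra, Il18r1 and Il18rap, which signal by other routes. They were taken by symbol from a fixed list of 44 genes, of which 40 were in the table of 14940 gene symbols: 23 receptor genes, 4 Janus kinase (JAK) genes, 5 STAT genes and 8 inhibitor genes. Osmr, Socs1, Socs5 and Cish were not analysed here. The RNA came from sorted bone marrow cells that lack lineage markers and carry Sca1 and cKit (LSK cells), a fraction that holds blood stem cells and multipotent progenitors. All 9 libraries came from C57BL/6 mice: 3 naive mice, 3 mice at day 3 after immunization, and 3 immunized mice given SR59230A, which blocks β3 adrenergic receptors, over the 3 days. Immunization starts experimental autoimmune encephalomyelitis (EAE), a model of inflammation of the central nervous system. It combined complete Freund's adjuvant with residues 35 to 55 of myelin oligodendrocyte glycoprotein. No group received adjuvant alone and the labels name no vehicle, so adjuvant and peptide, or antagonist and its administration, cannot be told apart.

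Cytokines of this class bind paired receptor chains that carry JAKs on their inner side. The activated JAKs phosphorylate STAT proteins, which move to the nucleus and turn on target genes. Among these targets are the SOCS genes, whose products bind receptors or JAKs and damp the signal. In bone marrow these routes pass on signals for survival, division and lineage choice, and they also carry inflammatory signals to stem and progenitor cells. The chain gp130, encoded by Il6st, is shared by interleukin-6, LIF and oncostatin M and signals mainly through STAT3.

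The deposited values are whole numbers that the authors adjusted in a way the labels do not describe, so the depth is unknown and no counting error can be given. They summed to between 8641735 and 10387955 per library, and are given below after scaling to a common library level. Levels are not compared between genes, because no gene length entered the values. Of the genes that define the gate, Kit fell and Ly6a, which encodes Sca-1, rose in both immunized groups, with log2 fold changes against naive mice of -0.43 ± 0.09 and 0.46 ± 0.12 in EAE mice and of -0.45 ± 0.09 and 0.68 ± 0.12 in treated mice (SE). The rise of Ly6a in EAE mice was lost without naive replicate 1 (adjusted p = 0.0619) and without scaling (0.0758).

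The promoters below show the letters around the start of Socs3, the inhibitor gene that rose, of Il6st and Lifr, the gp130 family chains among the receptor genes that rose, and of Bcl6, a textbook STAT target gene that also rose. They are RefSeq windows of 300 bases on build GRCm38.p6, 5′ to 3′ on the gene's strand, with 250 bases before the start. Capitals mark TTCNNNGAA, the spacing that most STAT dimers bind. It reads alike on both strands.
Socs3, chr11:117969317-117969616, minus strand: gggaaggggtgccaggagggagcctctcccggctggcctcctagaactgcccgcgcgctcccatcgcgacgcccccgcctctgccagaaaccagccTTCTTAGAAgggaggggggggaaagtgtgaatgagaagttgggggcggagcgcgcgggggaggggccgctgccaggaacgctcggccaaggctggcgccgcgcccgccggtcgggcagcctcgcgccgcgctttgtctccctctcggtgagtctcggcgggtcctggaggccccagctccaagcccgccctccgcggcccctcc
Bcl6, chr16:23981234-23981533, minus strand: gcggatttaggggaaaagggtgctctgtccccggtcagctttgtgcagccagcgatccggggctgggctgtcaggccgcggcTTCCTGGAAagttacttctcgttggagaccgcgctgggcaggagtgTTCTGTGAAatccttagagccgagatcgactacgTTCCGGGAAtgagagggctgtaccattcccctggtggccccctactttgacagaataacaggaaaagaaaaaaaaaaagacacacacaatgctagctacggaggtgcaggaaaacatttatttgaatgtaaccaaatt
Il6st, chr13:112463820-112464119, plus strand: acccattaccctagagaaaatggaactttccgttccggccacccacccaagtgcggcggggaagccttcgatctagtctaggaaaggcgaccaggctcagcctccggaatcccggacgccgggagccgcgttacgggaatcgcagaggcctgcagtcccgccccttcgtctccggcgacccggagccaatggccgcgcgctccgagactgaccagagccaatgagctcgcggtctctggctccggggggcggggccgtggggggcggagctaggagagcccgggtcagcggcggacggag
Lifr, chr15:7129322-7129621, plus strand: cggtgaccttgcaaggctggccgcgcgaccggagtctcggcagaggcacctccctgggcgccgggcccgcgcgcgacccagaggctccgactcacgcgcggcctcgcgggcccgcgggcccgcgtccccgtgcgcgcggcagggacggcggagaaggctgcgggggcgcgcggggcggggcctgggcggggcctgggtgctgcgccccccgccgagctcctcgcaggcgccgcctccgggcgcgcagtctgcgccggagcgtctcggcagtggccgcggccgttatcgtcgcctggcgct
The Socs3 window held 1 match, TTCTTAGAA, at bases 97 to 105 counted from its 5′ end. The Bcl6 window shown held 3, TTCCTGGAA, TTCTGTGAA and TTCCGGGAA, which start at bases 83, 129 and 163. The Il6st and Lifr windows held none. Of all 32851 RefSeq windows 8.3% held the motif, against 5 of 43 windows of the members, in Socs3, Cish, Ifnar1, Ifnar2 and Il18r1. The members' windows cover 34 of the 44 genes. The same motif with 1 more base at its centre, which STAT6 also binds, was in 6.95% of all windows and in 4 of the members' 43, in Ifngr2, Il18r1 and Il18rap. Of the 13 windows of members that passed a test below, 1 held the shorter motif and 1 the longer. The STAT3 and STAT5 target genes listed below had 22 windows over 16 genes. Of these windows 2 held the shorter motif (9.09%), and Bcl6 was the only gene with it. The Bcl6 window shown is therefore not typical of that list.

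At day 3 after immunization, the receptor genes Lifr, Il6st, Il4ra, Il3ra and Il10ra and the inhibitor gene Socs3 were higher in LSK cells, and the inhibitor gene Pias3 was lower. Socs3 rose 4.28-fold, Lifr 3.25-fold and Il4ra 1.90-fold. Of the 40 members, all of which passed the filter on low values, 6 rose, 1 fell and 33 did not pass the test. These 7 are 17.5% of the members, beside 14.2% called over all 13018 genes tested, of which 9.13% were higher and 5.1% lower. They include Socs3. With a mean value of at least 100 required, where Socs3 was not tested, 18.8% of the members and 19.2% of all genes were called. The groups did not overlap in 20 of the 40, beside 39.4% of all genes. The median log2 fold change was 0.06 over the members and -0.003 over all genes. A gene was called when its Benjamini-Hochberg adjusted p by limma-trend was under 0.05. In bulk RNA, fewer cells of a type and less RNA per cell cannot be told apart, here and below.

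In mice given SR59230A, the same comparison with naive mice found 10 members higher and 2 lower, 30% of the 40 beside 14.8% of all genes, of which 10.2% were higher and 4.61% lower. Socs3 is counted here too. With a mean value of at least 100 required, 28.1% of the members and 19.8% of all genes were called. The groups did not overlap in 23 of the 40, beside 48.8% of all genes. Lifr, Il6st, Il4ra, Il3ra, Il10ra and Socs3 rose here too, as did the receptor genes Il2rb, Il10rb and Il18rap and the transcription factor gene Stat3, while Crlf2 and Stat4 fell. The median log2 fold change was 0.16 over the members and 0.007 over all genes. Both immunized groups were set against the same 3 naive libraries, so their differences from naive mice are not independent of each other. In the direct comparison of treated with EAE mice none of the 40 passed. There the groups did not overlap in 6 members that were higher and 3 that were lower, beside 16.2% of all genes.

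**Figure D1:**
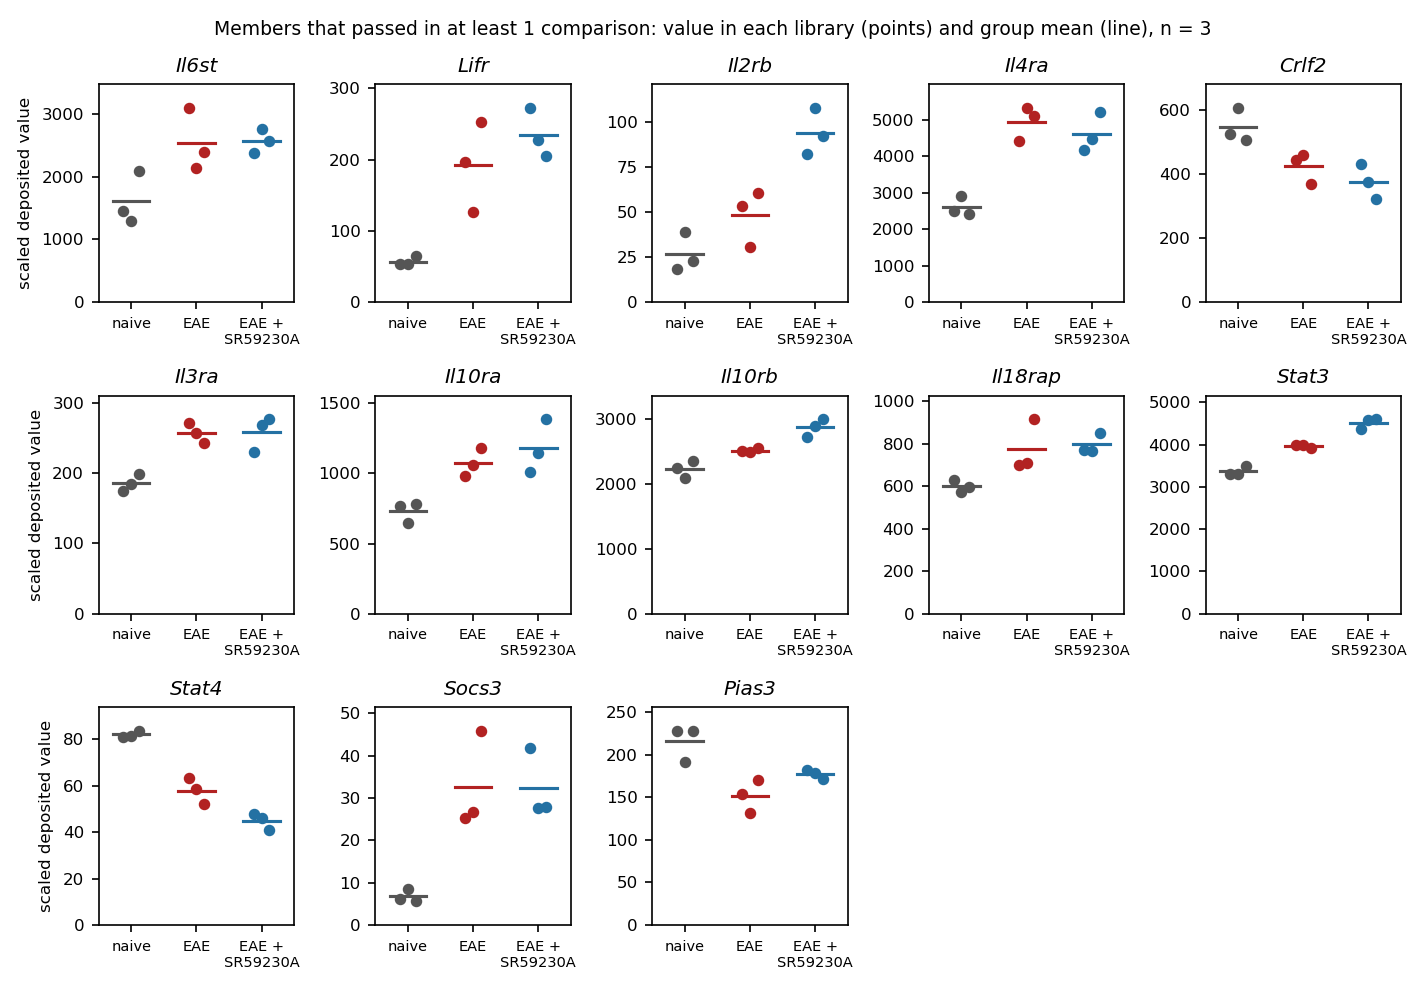
Scaled deposited value (vertical axes, linear, from 0) in the 9 libraries for the 13 members that passed in at least 1 comparison. Points are libraries and lines are means of 3. For Lifr, Il6st, Il4ra, Il3ra, Il10ra, Socs3, Il10rb, Il18rap and Stat3 every immunized library lies above every naive library. For Crlf2, Stat4 and Pias3 every immunized library lies below, and the naive and EAE libraries of Il2rb overlap.

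Among the 23 receptor genes of the list, Lifr of the gp130 family had the largest log2 fold change. Lifr, the LIF receptor chain that pairs with gp130, stood at 52.7, 53.1 and 64.8 in the naive libraries, at 197, 127 and 253 in the EAE libraries and at 273, 227 and 205 in the treated libraries. Its log2 fold change against naive mice was 1.70 ± 0.24 in EAE mice (SE, adjusted p = 0.00107) and 2.03 ± 0.24 in treated mice (adjusted p = 0.000352). The lowest immunized library, EAE replicate 2, was still above the highest naive library.

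Il6st was at 1462, 1292 and 2090.5 in naive, 3106, 2139 and 2396 in EAE and 2377, 2765 and 2571 in treated mice. Naive replicate 3 and EAE replicate 2 lay close to each other, and the groups did not overlap. The log2 fold change was 0.67 ± 0.18 in EAE mice (adjusted p = 0.0273) and 0.70 ± 0.18 in treated mice (adjusted p = 0.0225). In EAE mice it did not pass with EAE replicate 1, naive replicate 1 or naive replicate 2 left out (adjusted p = 0.0611, 0.077 and 0.0784). The treated call was lost without treated replicate 2, naive replicate 1 or naive replicate 2 (adjusted p = 0.0574, 0.0654 and 0.064). Without scaling the adjusted p was 0.0645 and 0.0846.

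The other 3 chains of this family did not pass in either comparison. Il6ra, the chain that binds interleukin-6, had log2 fold changes of 0.23 ± 0.18 and 0.31 ± 0.18 in EAE and treated mice. Il27ra, which pairs with gp130 for interleukin-27, had 0.35 ± 0.22 and 0.06 ± 0.22. Il11ra1, the interleukin-11 chain, had -0.04 ± 0.15 and 0.05 ± 0.15. Mice carry a near-identical copy of this gene, Il11ra2, so its reads may be split between them and the value is uncertain.

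Among the receptors of the common gamma chain family, Il4ra rose. It encodes the chain shared by the interleukin-4 and interleukin-13 receptors, and stood at 2507, 2902 and 2424 in naive, 4404, 5325 and 5105 in EAE and 4155, 4467 and 5215 in treated mice. The immunized libraries were all far above the naive ones. The log2 fold change was 0.93 ± 0.12 in EAE mice (adjusted p = 0.000649) and 0.82 ± 0.12 in treated mice (adjusted p = 0.00142). Its partner chains did not pass: Il2rg, the common gamma chain itself, had 0.25 ± 0.20 and 0.36 ± 0.20. Il13ra1 had -0.15 ± 0.41 and 0.12 ± 0.41, at values of 13.2 to 32.2.

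Il2rb, the signalling chain for interleukin-2 and interleukin-15, was at 18.2, 38.9 and 22.5 in naive, 53.3, 30.7 and 60.5 in EAE and 82.4, 108 and 92.2 in treated mice. The naive and EAE libraries overlapped, and the treated libraries lay above all others. Against naive mice it rose in treated mice by 1.86 ± 0.34 on the log2 scale (adjusted p = 0.00457), and was at 0.85 ± 0.34 in EAE mice (adjusted p = 0.116). The EAE value passed without EAE replicate 2 (adjusted p = 0.0385) or naive replicate 2 (0.0287). Il15ra, which presents interleukin-15 to this chain, had -0.13 ± 0.16 and -0.09 ± 0.16. Il21r, the interleukin-21 chain, had 0.24 ± 0.34 and 0.57 ± 0.34.

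Natural killer cells use Il2rb, and their genes were looked at in the same libraries. All 6 listed natural killer genes were in the table, with summed values of 588 to 681 in naive, 868 to 1031 in EAE and 902 to 996 in treated libraries. Nkg7 made up most of each sum, with means of 592, 860 and 802 in naive, EAE and treated mice. The defining gene Ncr1 stood between 0 and 1.88 in naive, 2.05 and 8.34 in EAE and 14.4 and 15.3 in treated libraries. Klrb1c and Klrk1 rose in the same order, with means of 32.4, 90.1 and 104 for Klrb1c and 4.16, 9.95 and 21.5 for Klrk1. Prf1 went the other way, with means of 8.94, 5.53 and 4.44. Gzma had means of 2.92, 2.73 and 8.08, higher in treated mice alone. Ncr1 and Klrk1 passed the filter on low values through immunized libraries alone, so no count of calls is given. Their part in the Il2rb and Il18rap results was not tested.

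Crlf2, the receptor chain for the epithelial cytokine TSLP, was at 526, 608 and 506 in naive, 444, 459 and 371 in EAE and 431, 377 and 323 in treated mice. Every immunized library was below every naive library. It fell by 0.54 ± 0.14 on the log2 scale in treated mice (adjusted p = 0.0244), and the EAE value of -0.37 ± 0.14 did not pass (adjusted p = 0.105). The treated call was lost without treated replicate 3 or naive replicate 2 (adjusted p = 0.0558 and 0.0518).

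Il3ra, the ligand-binding chain for interleukin-3, was at 174, 185 and 199 in naive, 271, 257 and 243 in EAE and 230, 268 and 277 in treated mice. The log2 fold changes were 0.47 ± 0.13 in both immunized groups (adjusted p = 0.0371 in EAE and 0.0355 in treated mice), and the immunized libraries did not overlap the naive ones. Its partner chain gene Csf2rb, the common beta chain, is outside the 44 genes and rose by 1.63 ± 0.18 and 1.51 ± 0.18. The EAE call of Il3ra was lost without EAE replicate 1 or naive replicate 1 (adjusted p = 0.0527 and 0.0805). The treated call was lost without treated replicate 2, treated replicate 3 or naive replicate 1 (adjusted p = 0.0768, 0.0626 and 0.0765). Under upper-quartile scaling the adjusted p was 0.0741 in EAE and 0.0791 in treated mice, and without scaling 0.139 and 0.205.

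In the interferon and interleukin-10 receptor family the 2 interleukin-10 receptor chains moved. Il10ra, which binds interleukin-10, was at 765, 646 and 783 in naive, 979, 1062 and 1183 in EAE and 1014, 1149 and 1387 in treated mice. All 6 immunized libraries were above the naive ones, with log2 fold changes of 0.56 ± 0.13 (adjusted p = 0.0172) and 0.69 ± 0.13 (adjusted p = 0.00623). Il10rb, the chain shared with interleukin-22 and the type III interferons, was at 2242, 2080 and 2349 in naive, 2494, 2485 and 2547 in EAE and 2717, 2884 and 2989.5 in treated mice. It passed in treated mice (0.37 ± 0.09, adjusted p = 0.0194) and not in EAE mice (0.18 ± 0.09, adjusted p = 0.218). The treated call was lost under upper-quartile scaling (adjusted p = 0.0673) and without scaling (0.19).

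The interferon receptor genes did not pass. Ifngr1 and Ifngr2, the chains of the interferon-gamma receptor, had log2 fold changes of 0.32 ± 0.11 and 0.48 ± 0.15 in EAE mice (adjusted p = 0.0667 and 0.0602), with every EAE library above every naive library. In treated mice they had 0.17 ± 0.11 and 0.26 ± 0.15. Ifnar1 and Ifnar2, the chains of the type I interferon receptor, had -0.005 ± 0.16 and 0.11 ± 0.11 in EAE mice and 0.23 ± 0.16 and 0.18 ± 0.11 in treated mice. Il12rb1, a chain of the interleukin-12 and interleukin-23 receptors, was at 265, 283 and 267 in naive and at 219, 213 and 203 in EAE mice. Its groups did not overlap, but the change of -0.36 ± 0.12 had adjusted p = 0.0655.

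Of the receptors that use other routes, Il18rap, the accessory chain for interleukin-18, passed in treated mice. It was at 627, 574 and 597 in naive, 700, 707 and 915 in EAE and 772, 764 and 853 in treated mice, with a treated log2 fold change of 0.41 ± 0.12 (adjusted p = 0.0411). The EAE value of 0.36 ± 0.12 did not pass (adjusted p = 0.0688), but did without EAE replicate 1 (0.0339), EAE replicate 2 (0.0493) or treated replicate 3 (0.0498). The treated value is a call near the threshold: it was lost without any single one of the 6 naive and treated libraries (adjusted p from 0.0505 to 0.0833), under upper-quartile scaling (0.103) and without scaling (0.169). Il18r1, the ligand-binding chain, varied widely within EAE mice, at 228, 166 and 393, and did not pass (-0.04 ± 0.27 and 0.11 ± 0.27). Il17ra, the interleukin-17 receptor chain, had -0.16 ± 0.10 and -0.04 ± 0.10.

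None of the 4 JAK genes passed in any comparison as reported, and Jak2 was near the threshold. The ubiquitous Jak1 had log2 fold changes of -0.19 ± 0.11 in EAE and -0.08 ± 0.11 in treated mice. Jak2, which serves the erythropoietin receptor and the common beta chain, was at 685, 599 and 626 in naive, 487, 496 and 574 in EAE and 528, 492 and 510 in treated mice. These groups did not overlap, yet the values of -0.30 ± 0.11 and -0.32 ± 0.11 missed the threshold (adjusted p = 0.0901 and 0.0678). Jak2 passed as lower in both comparisons under upper-quartile scaling, with group coefficients alone and without EAE replicate 3. In treated mice it also passed without EAE replicate 1, EAE replicate 2 or naive replicate 2, and with the 2 groups alone. Jak3, which binds the common gamma chain, had 0.18 ± 0.10 and 0.23 ± 0.10, and Tyk2 had 0.18 ± 0.11 and 0.24 ± 0.11. In treated mice Jak3 passed as higher with group coefficients alone and with the 2 groups alone. Tyk2 did so there without naive replicate 2 and with the 2 groups alone.

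Among the STAT genes 1 rose and 1 fell in treated mice, and none passed in EAE mice. Stat3, the main transcription factor below gp130, was at 3313, 3301 and 3495 in naive, 3996, 3981 and 3908 in EAE and 4366, 4579 and 4599 in treated mice. The 3 groups did not overlap, in that order, and 16.2% of all genes did not overlap between treated and EAE mice. The change against naive mice was 0.42 ± 0.09 in treated mice (adjusted p = 0.00819) and 0.24 ± 0.09 in EAE mice (adjusted p = 0.0924), and without scaling the treated call was lost (adjusted p = 0.117). The EAE value passed without EAE replicate 3 (adjusted p = 0.0425) and without treated replicate 1 (0.0444).

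Stat4, which passes on interleukin-12 signals in lymphoid cells, was at 81.1, 81.5 and 83.6 in naive, 63.2, 58.3 and 52.1 in EAE and 47.8, 45.9 and 41.1 in treated mice. These groups were also apart from each other, in falling order. Stat4 fell by 0.86 ± 0.20 in treated mice (adjusted p = 0.0168), and its EAE value of -0.50 ± 0.20 did not pass (adjusted p = 0.127). Stat5a, Stat5b and Stat6 did not pass, with log2 fold changes between -0.13 and 0.16. Stat5a and Stat5b are close copies, so their reads may be partly split.

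**Figure D2:**
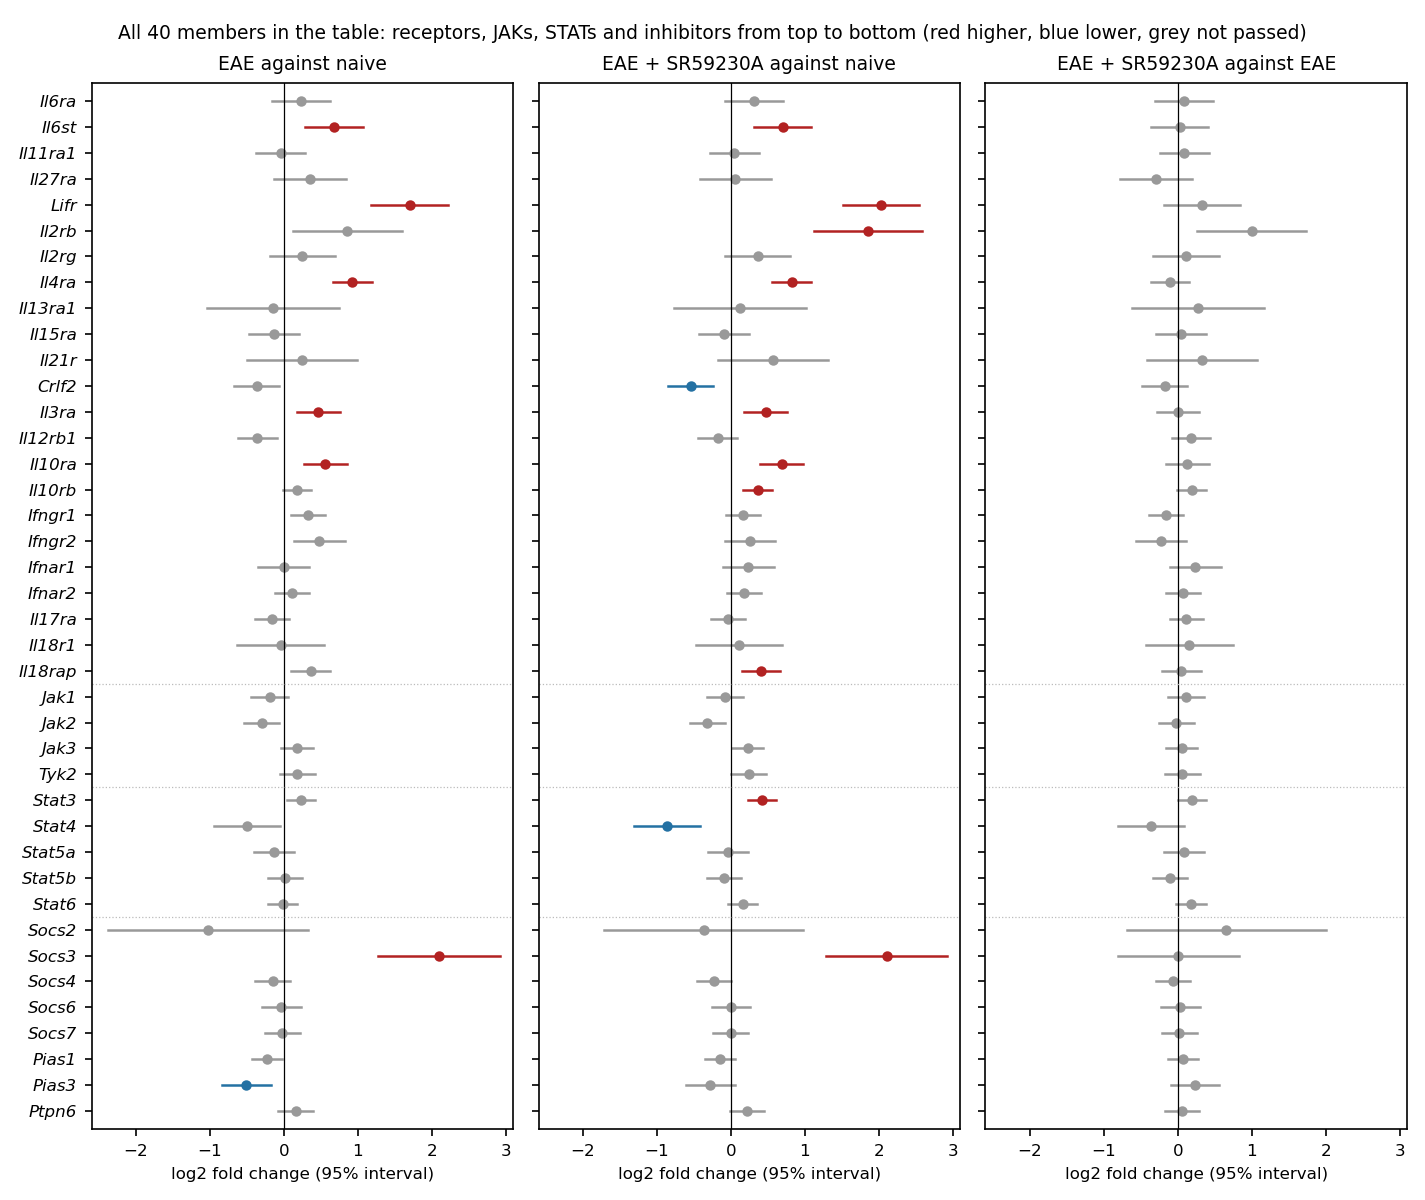
Log2 fold change (points) with its unadjusted 95% interval (lines) for the 40 members, by role from top to bottom, in the 3 comparisons. Red marks members called higher and blue those called lower. Receptors and Socs3 hold most of the calls, the 4 JAK genes hold none, and the right panel, treated against EAE mice, has no call.

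Of the inhibitors, Socs3 rose. It encodes the protein that binds gp130 and its JAKs and ends their signal, and stood at 6.08, 8.53 and 5.63 in naive, 25.3, 26.6 and 45.9 in EAE and 41.7, 27.5 and 27.8 in treated mice. The lowest immunized library was above the highest naive library, at values near the lower end of the table. The log2 fold change was 2.10 ± 0.37 in EAE mice (adjusted p = 0.00419) and 2.10 ± 0.37 in treated mice (adjusted p = 0.0041). No naive library reached 10, so Socs3 passed the filter on low values through its immunized libraries alone.

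The other SOCS genes in the table did not pass. Socs2, a target of STAT5 that damps growth hormone signals, was low and scattered, at 16.2, 7.58 and 33.8 in naive, 13.5, 3.07 and 9.38 in EAE and 10.2, 15.3 and 12.2 in treated mice. Socs4, Socs6 and Socs7 had log2 fold changes between -0.22 and 0.002.

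Pias3, which encodes an inhibitor of STAT3, was at 228, 191 and 228 in naive, 154, 132 and 170 in EAE and 182, 178 and 172 in treated mice. It fell by 0.51 ± 0.15 on the log2 scale in EAE mice (adjusted p = 0.0431) and was at -0.28 ± 0.15 in treated mice (adjusted p = 0.229). It did not pass with EAE replicate 2, naive replicate 1 or naive replicate 3 left out (adjusted p = 0.0616, 0.0954 and 0.0679), nor without scaling (0.0862). Pias1 and Ptpn6, which encode an inhibitor of STAT proteins and the phosphatase SHP-1, had -0.23 ± 0.09 and 0.16 ± 0.11 in EAE mice and did not pass.

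The test of the antagonist itself sets treated against EAE mice. Here 1 gene of 13018 passed (0.00768%), which is not among the 40. At an unadjusted p under 0.05 there were 2 members, Il2rb and Stat3, beside 504 of all genes. Il2rb had a log2 fold change of 1.001 with an unadjusted 95% interval of 0.27 to 1.74, and its treated libraries, at 82.4 to 108, lay above its EAE libraries, at 30.7 to 60.5. Stat3 had 0.19 ± 0.09, and Stat4 -0.36 ± 0.20 with an interval of -0.80 to 0.09. Both had adjusted p = 0.998, as had Il2rb.

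For the other members the intervals state what this comparison could show. Lifr had 0.33 with an interval of -0.19 to 0.85, Il6st 0.03 with -0.36 to 0.42, and Il4ra -0.10 with -0.37 to 0.16. Socs3, at low values, had 0.01 with -0.81 to 0.83. The median interval over the 40 members reached 0.28 to either side. Of the 40 values 31 were positive, beside 52.5% of all genes, with a median of 0.07 beside 0.01 over all genes. Without scaling the median was -0.01 over the members and -0.08 over all genes. The calls of Il2rb, Il10rb, Il18rap, Stat3, Stat4 and Crlf2 in treated mice and not in EAE mice, and of Pias3 in EAE mice alone, are therefore not shown to differ between the immunized groups.

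Other genes of the pathway were counted from lists. Of the 32 listed cytokine genes 20 were in the table and 15 were tested, and 3 rose and 1 fell in each immunized group (26.7%, beside 14.2% and 14.8% of all genes). Lif, a ligand of the Lifr and gp130 pair, was at 19.3, 60.7 and 15.0 in naive, 73.1, 105 and 91.7 in EAE and 143, 119 and 109 in treated mice. Its log2 fold changes were 1.74 ± 0.41 (adjusted p = 0.0172) and 2.20 ± 0.41 (adjusted p = 0.00561). The EAE call was lost without EAE replicate 2 or naive replicate 1 (adjusted p = 0.057 and 0.0547). Osm, which encodes oncostatin M, was at 159, 190 and 141 in naive, 302, 392 and 374 in EAE and 355, 297 and 319 in treated mice, 1.13 ± 0.15 and 0.99 ± 0.15 higher on the log2 scale. Csf1, which encodes macrophage colony-stimulating factor, rose by 0.45 ± 0.13 and 0.64 ± 0.13, and both calls were lost without scaling (adjusted p = 0.137 and 0.0592), the EAE call also under upper-quartile scaling (0.0854) and without naive replicate 1 (0.0645). The gene that fell in EAE mice was Il12a, a subunit of interleukin-12 (-0.40 ± 0.11, adjusted p = 0.0376), and in treated mice Clcf1, a ligand of the interleukin-6 family (-0.68 ± 0.21, adjusted p = 0.0494). Il12a did not pass without EAE replicate 2, naive replicate 2 or naive replicate 3 (adjusted p from 0.0528 to 0.0731) or without scaling (0.104). Clcf1 did not pass without treated replicate 2 or 3 or naive replicate 1 or 2 (adjusted p from 0.0743 to 0.104), nor with a pseudocount of 0.1 (0.0506), without the filter (0.0514) or without scaling (0.0512).

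Of the 23 listed target genes of STAT3 and STAT5, 9 rose and 2 fell in EAE mice (47.8%, beside 14.2% of all genes), and 10 rose and 1 fell in treated mice (47.8%, beside 14.8%). The list also holds Osm. With a mean value of at least 100 required, 19.2% and 19.8% of all genes were called in EAE and treated mice. The shares of this list and of the ligand and receptor lists were not computed at that setting. Pim1, a survival kinase gene, was at 8756, 8621 and 9167 in naive, 18878, 19669 and 23109 in EAE and 20590, 20552 and 23172 in treated mice. Its log2 fold changes were 1.22 ± 0.12 and 1.28 ± 0.12, and those of its relative Pim2 were 1.26 ± 0.12 and 1.27 ± 0.12. Bcl3, which encodes a co-activator of the NF-kappaB family, had 1.43 ± 0.16 and 1.25 ± 0.16. The transcription factor genes Cebpd (1.71 ± 0.19 and 1.32 ± 0.19), Bcl6 (0.46 ± 0.13 and 0.51 ± 0.13) and Id1 (1.87 ± 0.18 and 1.85 ± 0.18) rose as well. The cyclin gene Ccnd2 fell in both groups (-0.54 ± 0.09 and -0.30 ± 0.09), and the treated call was lost without treated replicate 2 or 3 or naive replicate 1 or 3 (adjusted p from 0.0663 to 0.0965), without the filter on low values (0.0527) and without scaling (0.0609). The call of Bcl6 was lost without scaling in both groups (adjusted p = 0.13 and 0.142), and in EAE mice also under upper-quartile scaling (0.0705) and without naive replicate 1 (0.0569). Many of these genes also answer to other signals, and the list was drawn up with earlier results of these data known.

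**Figure D3:**
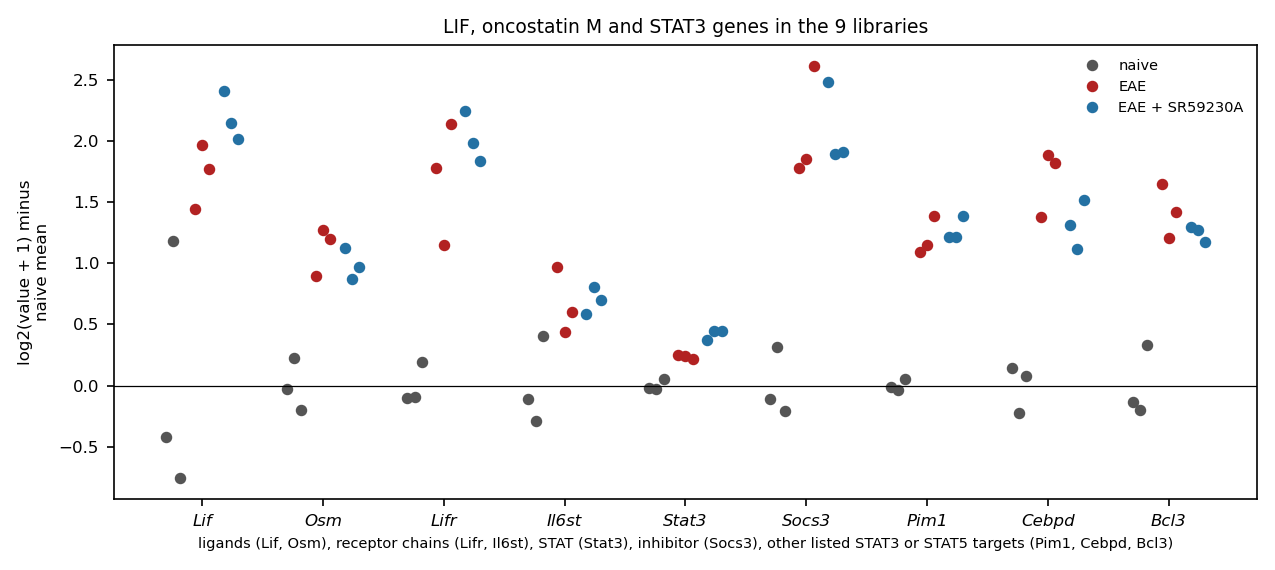
Log2(value + 1) minus the naive mean (vertical axis) for ligand, receptor, STAT, inhibitor and target genes in the 9 libraries, with points for libraries. For each of the 9 genes every immunized library lies above every naive library. The 9 genes are a selection, so their separation says nothing about the lists as a whole. Genes of the same roles that fell or overlapped, such as Clcf1, Il6ra and Ccnd2, are not shown. Over all genes, the groups did not overlap in 39.4% (EAE against naive) and 48.8% (treated against naive). Il6st comes nearest to an overlap, with naive replicate 3 at 2090.5 and EAE replicate 2 at 2139.

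Of the other 35 listed cytokine receptor genes 25 were tested, and 6 rose and 4 fell in each immunized group (40%, beside 14.2% and 14.8% of all genes). The gene with the greatest log2 fold change was Csf1r, the receptor of macrophage colony-stimulating factor and itself on the monocyte list below (2.29 ± 0.25 and 2.28 ± 0.25). Csf2rb2, the copy of Csf2rb that serves interleukin-3 alone, had 2.24 ± 0.24 and 2.18 ± 0.24, and reads of both copies may be split. Ebi3, which encodes a soluble subunit of interleukin-27, fell by 1.53 ± 0.21 and 1.14 ± 0.21. Il31ra, a gp130-like chain that pairs with the oncostatin M receptor, rose by 1.41 ± 0.29 and 1.31 ± 0.29. Of 14 other regulators tested, 2 rose in each immunized group, a share of 14.3% that is close to the 14.2% and 14.8% of all genes. These were Ptpn1, which encodes a phosphatase of JAK2 and Tyk2 (0.55 ± 0.09 and 0.59 ± 0.09), and Sh2b2, which encodes an adaptor that binds JAKs (0.57 ± 0.13 and 0.51 ± 0.13). The calls of Sh2b2 were lost without scaling (adjusted p = 0.0598 and 0.156), and its treated call also under upper-quartile scaling (0.0522) and without naive replicate 1 (0.0576).

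Summed markers of granulocyte-monocyte progenitors and of monocytes and macrophages were higher in the same libraries. The 6 granulocyte-monocyte progenitor genes summed to 1786 to 2423 in naive, 13086 to 20173 in EAE and 13123 to 14188 in treated libraries. The 9 monocyte and macrophage genes in the table summed to 706 to 1100 in naive, 2818 to 3227 in EAE and 2475 to 3199 in treated libraries. Itgam and Ccr2 weighed most in the immunized sums. Mrc1 and C1qb went the other way, with means in naive, EAE and treated mice of 27.4, 11.7 and 12.6 and of 6.05, 1.85 and 4.84. Cebpe of the first list and Adgre1 of the second passed the filter on low values through immunized libraries alone, so no count of calls is given. The 5 stem-cell genes summed to 5542 to 6329 in naive and 2643 to 3093 in immunized libraries. Hlf weighed most, with means of 3248, 1174 and 1247 in naive, EAE and treated mice. Slamf1 of this list went the other way, with means of 77.0, 96.3 and 91.9. The part of these cell types in the changes of Il4ra, Il10ra, Il3ra, Lifr and Socs3 was not tested.

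Genes of chemosensory receptors, with no known role in these cells, also separated the groups. They held 0.153% to 0.183% of the values in naive, 0.108% to 0.122% in EAE and 0.0817% to 0.101% in treated libraries. With this share as a further term of the model no member passed in any comparison, and 100 and 29 genes in all were called against naive mice. The log2 fold changes under this term in EAE and treated mice were 0.85 and 0.71 for Il4ra, 1.39 and 1.76 for Il6st, 1.08 and 1.46 for Il10ra, and 1.19 and 1.28 for Lifr. For Socs3 they were 0.68 and 0.0058, against 2.10 in both groups without it. Because the share separates the groups, that term also takes out differences between them.

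**Figure D4:**
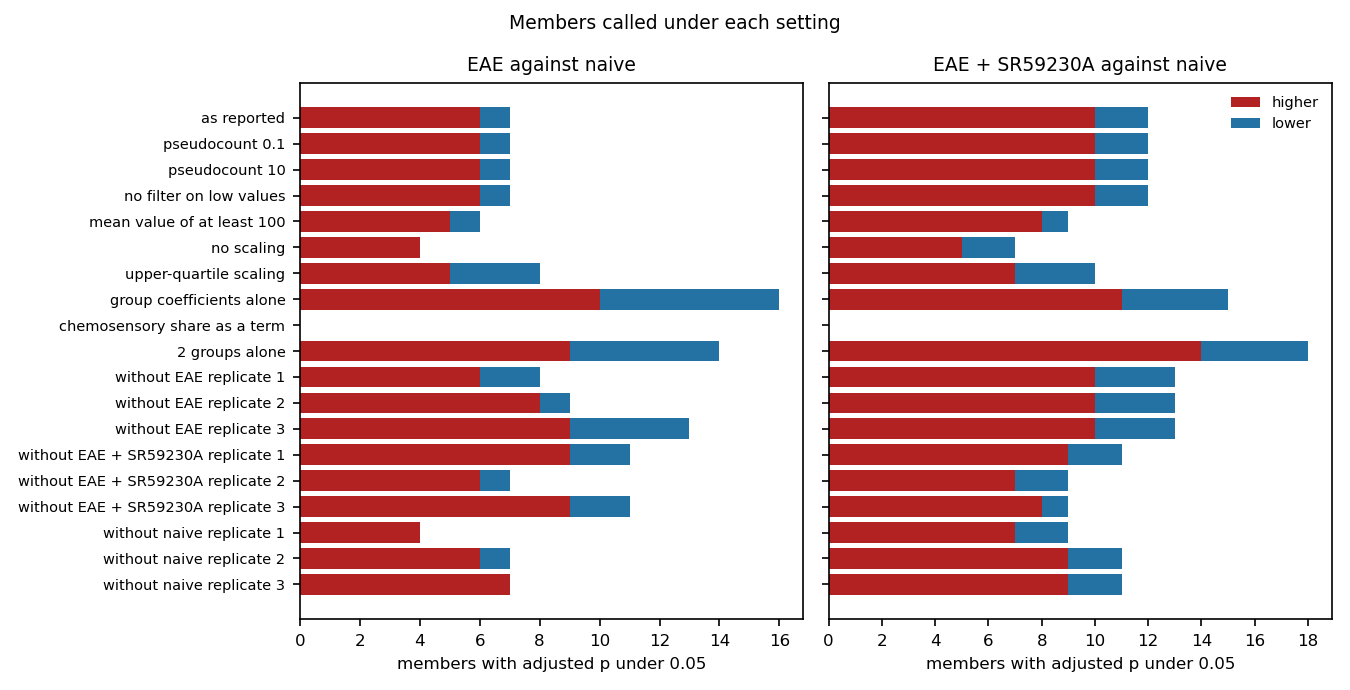
Number of members called higher (red) and lower (blue) against naive mice (horizontal axes) under each setting (rows). The count in EAE mice ranges from 0 to 16 around the reported 7, and in treated mice from 0 to 18 around the reported 12, with 0 where the chemosensory share is a term.

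The count of members called in EAE mice moved with single libraries. It was 13 without EAE replicate 3, 11 without treated replicate 1 or 3, and 4 without naive replicate 1, where Lifr, Il4ra, Il10ra and Socs3 remained. Il12rb1, Ifngr1 and Ifngr2 were among the members added without EAE replicate 3 and without treated replicate 1 or 3. Among all genes called in treated mice, 1234 were called without naive replicate 1, and 2967 and 3327 were called without EAE replicate 2 or 3. Lifr, Il4ra, Il10ra and Socs3 kept their calls in both comparisons with naive mice when any single library was left out.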

How the data were processed

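Each of the 9 libraries holds RNA of LSK cells from 1 of 3 groups of 3 mice given by the labels, extracted with the RNeasy micro kit, per the labels' protocols. The authors deposited whole numbers by gene symbol. The submitters' processing notes name DESeq2, with neither version nor role. Aligner, counter, build and annotation: not given in the sources used here. The deposited values are treated as a score, not as read counts. On the scale ln(value + 1), taken over the 4577 genes whose mean reached 500, the last 2 principal components carried 6.7e-05% and 5.94e-05% of variance. Independent libraries would not leave such directions empty. These 2 missing directions lay 99.4% and 99.7% within the groups, so replicate spread may be understated.

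Values were divided by median-of-ratios factors (0.9005 to 1.107). The 13018 genes that reached 10 in 3 or more libraries were tested on log2(value + 1), a scale that understates folds of low genes. Groups were compared, 2-sided, with limma-trend (limma 3.58.1, R 4.3.3). The model had group coefficients and, as covariates, the 2 missing directions. P-values were adjusted by Benjamini-Hochberg over all genes, with a threshold of 0.05. All adjusted p-values are from this model, which had 4 residual and 7.52 prior degrees of freedom. Errors of log2 fold changes are SE from this model, with n = 3 libraries a group. For each gene they rest on a single estimate of the spread that the 3 groups share. Leaving out a library leaves 1 missing direction, found again in the remaining 8 libraries. The members and lists were chosen with earlier results of these data known. Members that passed in any comparison are given in every library, the others by fold change or range. Of the listed pathway genes beside the members, those that passed were to be named, at most the 8 with the largest absolute log2 fold change per comparison and direction. Osm, Pim1, Pim2, Bcl6, Ptpn1, Sh2b2, Csf1, Il12a and Clcf1 were chosen after their values were seen, whether or not they meet this rule. The labels describe replicates as separate mice, numbered here in order of deposition. Some listed genes are not reported here.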

Additional observations from a re-analysis of the deposited data

How the results depend on the processing

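Of the members called against naive mice, none changed direction or lost its call with a pseudocount of 0.1 or 10 or without a filter. With a mean value of at least 100 required, Socs3, Il2rb and Stat4 were not tested and the other called members kept their calls. In EAE against naive mice, 7 members and 1853 genes were called. These counts were 4 and 1059 without scaling, 16 and 3485 with group coefficients alone, 0 and 100 with the chemosensory share as a term, and 14 members with the 2 groups alone. Leaving out 1 library gave 4 to 13 members. In treated against naive mice, 12 members and 1932 genes were called. These were 7 and 1073 without scaling, 0 and 29 with the chemosensory term, and 3920 genes with group coefficients alone or 4442 with the 2 groups alone. Leaving out 1 library gave 1234 to 3327 genes. Group coefficients alone leave the missing directions in the residuals, which lowers the estimated spread by construction. The fits of the 2 groups alone also had no such covariates, and what this does to their spread was not tested. Of the genes called without scaling, 606 were higher and 453 lower in EAE and 489 and 584 in treated mice. Upper-quartile scaling gave 807 and 910, and 835 and 954, in place of 1189 and 664, and 1332 and 600. No scaling moved the median of all genes in treated mice to -0.11.

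Values that changed sign did so without passing. With the chemosensory term these were, in EAE against naive mice, Il2rb (-0.46), Lif (-0.69), Ly6a (-0.15) and Myc (-0.034). In treated against naive mice they were Il2rb (-0.085), Ebi3 (0.71), Il31ra (-0.56), Lif (-1.39), Ly6a (-0.22), Myc (-0.16) and Sh2b2 (-0.26). In treated against EAE mice, where none was called, Socs3 turned to -0.67 with that term. There Il3ra, Il6st, Socs3 and Il18rap turned to -0.083, -0.059, -0.074 and -0.036 without scaling, and Il3ra and Socs3 to -0.016 and -0.0098 with upper-quartile scaling. The cause was not tested. Leaving out 1 library gave ranges there of -0.050 to 0.085 for Il3ra, -0.092 to 0.18 for Il6st, -0.18 to 0.27 for Socs3 and -0.017 to 0.18 for Il18rap. No paired analysis was possible because the labels give the groups no shared replicate numbers. The depth is unknown, so what it limits cannot be stated.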
